A study of Mus musculus with 18 samples.

Results

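The genes of the WAVE complex were followed in mouse embryonic fibroblasts (MEFs) before and during reprogramming with OCT4, SOX2, KLF4, and MYC (OSKM). The 8 genes, taken from a list of subunits and partners of the complex, were Wasf1, Wasf2, Wasf3, Abi1, Abi2, Cyfip1, Nckap1, and Baiap2. Wasf3 was chosen by the measured PSI of a pair of its exons in the knockdown libraries, and the other genes were taken as its relatives and partners in the complex. All 8 were in both expression tables, among 9435 genes for the knockdown dataset and 9472 for the overexpression dataset. They carried 419 of the 661941 splicing events in the annotation, of which 384 were covered in every library.

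The MEFs came from Collagen-OKSM, M2rtta+ male embryos, in which doxycycline switches on OSKM. Of 18 libraries, 2 for each of 9 groups, 12 formed the knockdown dataset and 6 the overexpression dataset. NI cells were non-infected MEFs at day 0, without induction, with a separate NI group in each dataset. All other groups were harvested at day 12 of doxycycline, after lentiviral infection or retroviral transduction. The lentiviral shRNAs were shCPSF3#1 and shCPSF3#2 against CPSF3, shUL1#1 and shUL1#2 against UL1, and the scrambled control shSCR, and the retroviral constructs were the vector alone (Empty) and T7-TIA1. CPSF3 is the endonuclease that cleaves pre-mRNA for polyadenylation, UL1 stands for the RNA-binding protein hnRNP UL1, and T7-TIA1 is the RNA-binding protein TIA1 with an epitope tag. Cells of the day 12 groups were sorted for the GFP of the vector at day 2 and then grown on irradiated feeder MEFs, so feeder RNA may be part of these libraries. NI cells had no virus, sort, or doxycycline, so the comparisons with NI hold all of these differences together.

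The WAVE complex relays signals from the GTPase Rac1 to the Arp2/3 complex, which starts branched actin filaments at the front of lamellipodia. It holds 1 WAVE protein (encoded by Wasf1, Wasf2, or Wasf3), an ABI protein, a CYFIP protein that binds Rac1, NCKAP1 or its blood paralog, and the small subunit BRK1. Wasf2 is broadly expressed, while Wasf1 and Wasf3 are best known from the nervous system. Baiap2 encodes IRSp53, a membrane-bending adaptor that links Rac1 to WAVE2.

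Reads on the genes of the tables numbered between 98882289 and 109047542 per library. The targeted genes moved as their labels say: Cpsf3 was at 86.7 and 118 scaled CPM (read counts relative to a library size that the authors scaled) in shSCR and between 38.6 and 77.1 in the 4 CPSF3 knockdown libraries. Hnrnpul1 was at 156 and 185 in shSCR and between 38.7 and 85.8 in the 4 UL1 knockdown libraries, and Tia1 was at 85.6 and 77.0 in Empty and 613 and 469 in T7-TIA1. Of 16 fibroblast markers, 14 were in the tables, with a summed level of 16771 and 19761 in NI, 7157 and 6104 in shSCR, and 13154 to 29741 with either knockdown. In the overexpression dataset this sum was 19455 and 41687 in NI, 5413 and 6236 in Empty, and 3568 and 4194 in T7-TIA1. Of 8 blood and macrophage markers, only Cd68, Csf1r, and Lyz2 were in the knockdown table, at 9.57 and 10.6 summed in NI, 171 and 300 in shSCR, 429 to 1814 with CPSF3 knockdown, and 259 to 1000 with UL1 knockdown. Of 14 epithelial markers, 4 were in the knockdown table (Krt8, Krt18, Krt19, and Dsp). Their sum was 64.3 and 51.2 in NI, 695 and 413 in shSCR, 55.8 to 285 with CPSF3 knockdown, and 109 to 314 with UL1 knockdown. None of 12 pluripotency markers was in either table. The part of these shifts in the results on the WAVE genes was not tested. In such bulk RNA, fewer cells of a type and less RNA per cell cannot be told apart.

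Per kilobase of merged exons, Nckap1 was the highest of the 8 genes in NI cells of the knockdown dataset, at 96.1 ± 7.27 scaled CPM (SD, n = 2). Abi1 followed at 33.8 ± 1.92, Wasf2 at 28.2 ± 1.32, and Cyfip1 at 20.8 ± 0.551, with no overlap between any of these libraries. Below them stood Baiap2 at 8.07 ± 1.00, Wasf1 at 5.57 ± 0.777, Abi2 at 5.54 ± 0.410, and Wasf3 at 3.02 ± 0.218, the levels of Wasf1 and Abi2 overlapping. In shSCR the order per kilobase was Nckap1 at 51.2 ± 5.36, Wasf2 at 26.2 ± 1.05, Abi1 at 24.2 ± 2.43, Cyfip1 at 11.0 ± 0.307, Baiap2 at 10.3 ± 1.94, Wasf1 at 9.48 ± 3.55, Wasf3 at 6.84 ± 3.75, and Abi2 at 4.03 ± 0.494. There every neighbour in the order overlapped except Nckap1 with Wasf2 and Abi1 with Cyfip1, so the order below Cyfip1 is not resolved. Both orders rest on the merged length of all annotated exons, from 2854 nt for Wasf1 to 11941 nt for Cyfip1. Before that division Cyfip1, at a mean of 248 scaled CPM in NI, stood above Wasf2 (177) and Abi1 (136).

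**Figure D1:**
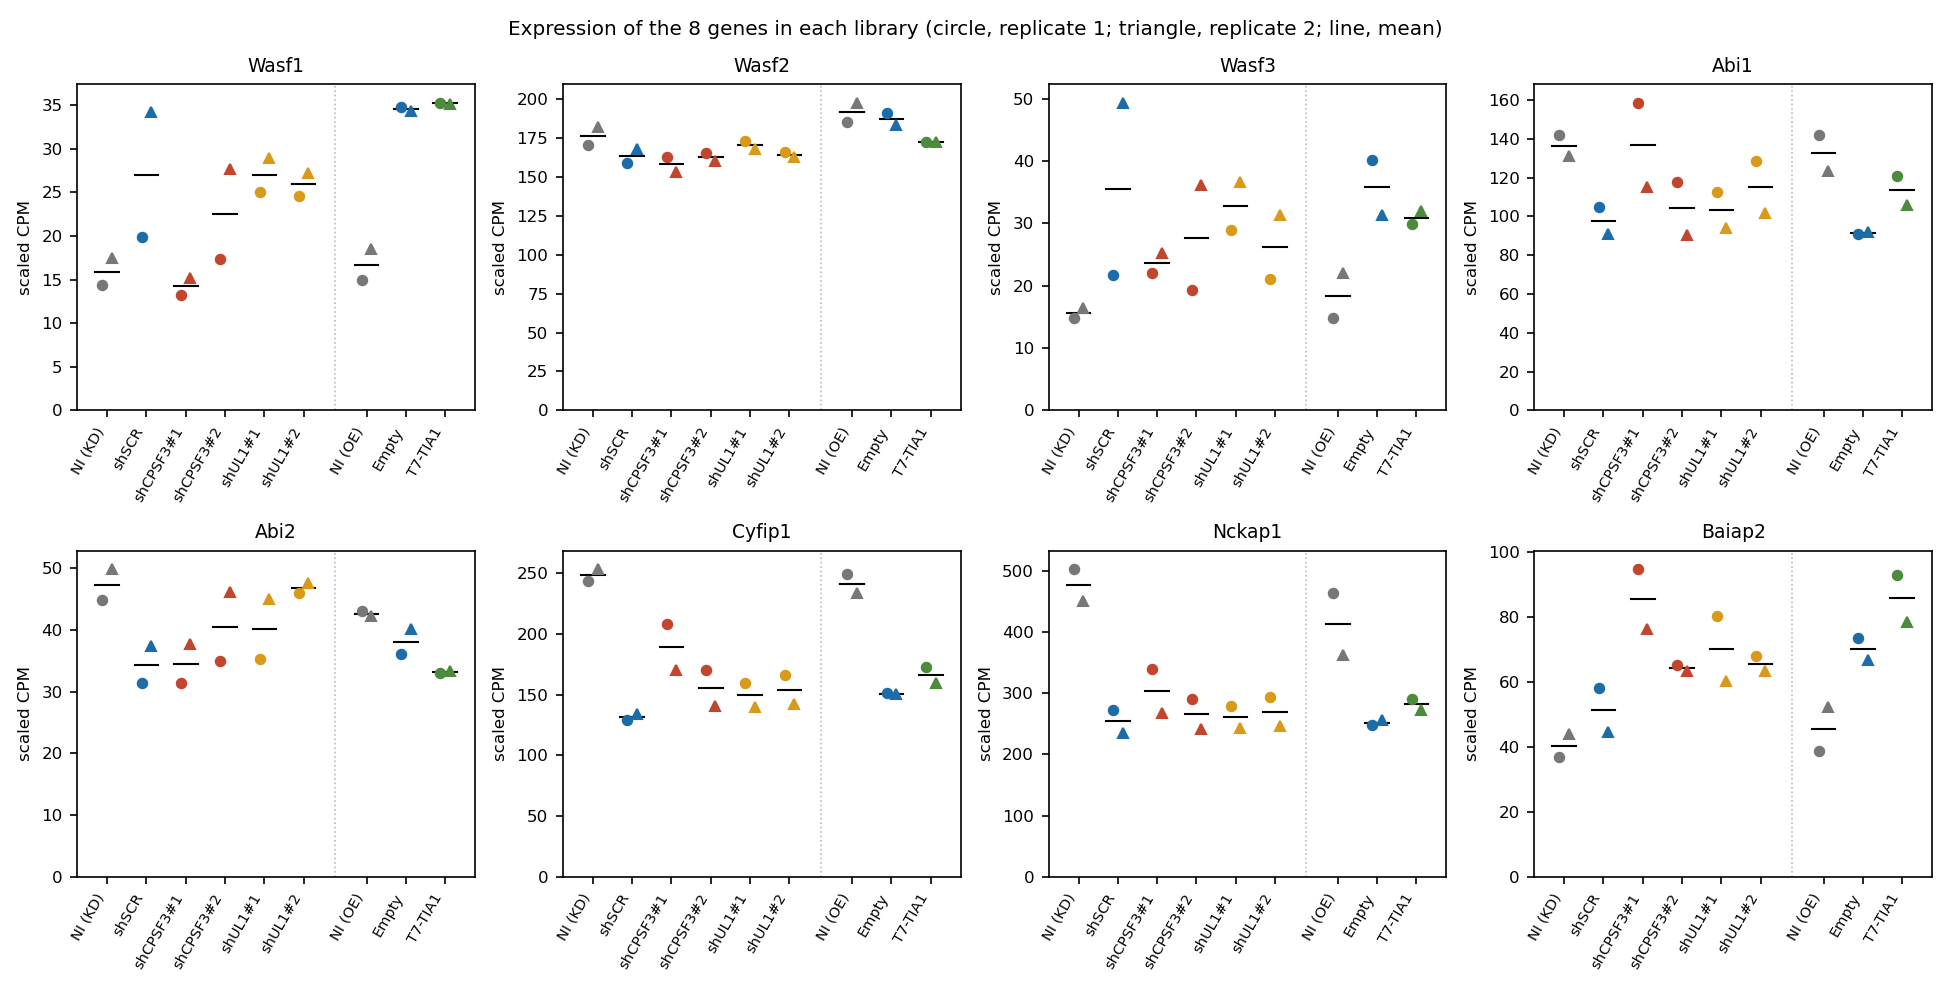
Scaled CPM (linear y axis from 0) of the 8 genes in each library of the 9 groups on the x axis, with the mean as a line. Of the 8 genes, Cyfip1 and Nckap1 are the highest and Wasf1 and Wasf3 the lowest in both NI groups, and Wasf2 stays between 153 and 198 throughout.

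Wasf2 (chr4:133130505-133199756, mm10, plus strand) encodes WAVE2. Its level was 171 and 182 scaled CPM in NI, 159 and 168 in shSCR, 153 to 165 in the CPSF3 knockdown libraries, and 163 to 173 in the UL1 knockdown libraries. With T7-TIA1 and its controls it was 186 and 198 in NI, 191 and 183 in Empty, and 172 and 173 in T7-TIA1. It moved least of the 8 genes by its largest log2 fold change: no contrast passed the test, and its log2 fold changes lay between −0.12 and 0.03. The 95% interval of its change from NI to shSCR ran from −0.33 to 0.11 on the log2 scale.

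Wasf1 (chr10:40883475-40938570, plus strand), which encodes WAVE1, was low in NI, at 14.3 and 17.5 scaled CPM. It was 19.9 and 34.2 in shSCR, 13.2 and 15.2 in shCPSF3#1, 17.3 and 27.6 in shCPSF3#2, 25.1 and 29.0 in shUL1#1, and 24.6 and 27.3 in shUL1#2. The shSCR libraries lay far apart, and the shCPSF3#1 libraries lay below both of them and overlapped NI. In the overexpression dataset Wasf1 was tight within groups, at 14.9 and 18.5 in NI, 34.8 and 34.4 in Empty, and 35.3 and 35.2 in T7-TIA1. Both groups at day 12 stood clear of NI there and next to each other.

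Wasf3 (chr5:146384985-146473615, plus strand) encodes WAVE3. Its level was 14.9 and 16.5 scaled CPM in NI, 21.8 and 49.3 in shSCR, 22.0 and 25.2 in shCPSF3#1, 19.3 and 36.2 in shCPSF3#2, 28.9 and 36.6 in shUL1#1, and 21.1 and 31.4 in shUL1#2. Every library at day 12 was above both NI libraries, and the 4 libraries of either knockdown lay within or just below the wide span of shSCR. Among the overexpression libraries Wasf3 was 14.8 and 22.0 in NI, 40.2 and 31.4 in Empty, and 29.8 and 32.0 in T7-TIA1. Because the gene was picked for its behaviour in the knockdown libraries, its mean log2 differences there are a description only: 1.02 from NI to shSCR, −0.38 for CPSF3 knockdown, and −0.18 for UL1 knockdown against shSCR.

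The replicate number went with the level of most members at day 12 of the knockdown dataset. In 5 of 5 groups the library numbered 2 had the higher Wasf3, Wasf1, and Abi2 levels, and in 5 of 5 the library numbered 1 had the higher Abi1, Nckap1, and Baiap2 levels. The 176-nt exon of Wasf3 was also more included in the library numbered 2 in 5 of 5 groups. The summed neuronal markers in the table (Tubb3 and Stmn2, 2 of 8) were higher in the library numbered 2 in 5 of 5 groups, and the summed blood markers in the library numbered 1 in 5 of 5. The part of these markers in the levels of the members was not tested.

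Abi1 (chr2:22940073-23040241, minus strand) encodes an adaptor that joins the WAVE protein to the rest of the complex. It was 142 and 131 scaled CPM in NI, 105 and 90.8 in shSCR, 90.4 to 158 in the CPSF3 knockdown libraries, and 93.8 to 128 in the UL1 knockdown libraries. In the overexpression dataset it was 142 and 123 in NI, 91.2 and 92.1 in Empty, and 121 and 106 in T7-TIA1. Its paralog Abi2 (chr1:60409619-60481158, plus strand) was 44.8 and 49.8 in NI, 31.4 and 37.4 in shSCR, 31.4 to 46.1 with CPSF3 knockdown, and 35.4 to 47.6 with UL1 knockdown. Both genes were lower in shSCR than in NI with no overlap of libraries. Abi2 was 43.1 and 42.2 in NI, 36.1 and 40.2 in Empty, and 33.1 and 33.3 in T7-TIA1 in the overexpression dataset.

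Cyfip1 (chr7:55841745-55932602, plus strand) encodes the Rac1-binding subunit. Its level was 244 and 253 scaled CPM in NI, 129 and 134 in shSCR, 140 to 208 in the CPSF3 knockdown libraries, and 140 to 166 in the UL1 knockdown libraries. All 8 knockdown libraries stood above both shSCR libraries and below both NI libraries. Cyfip1 in the overexpression dataset was 249 and 233 in NI, 151 and 151 in Empty, and 172 and 160 in T7-TIA1.

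Nckap1 (chr2:80500512-80581380, minus strand) encodes the large scaffold subunit that pairs with CYFIP1. It was 502 and 451 scaled CPM in NI, 273 and 235 in shSCR, and 241 to 340 in the 8 knockdown libraries. The knockdown libraries overlapped those of shSCR and lay below NI. Nckap1 in the overexpression dataset was 464 and 363 in NI, 249 and 256 in Empty, and 291 and 273 in T7-TIA1.

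Baiap2 (chr11:119942763-120006782, plus strand) ran the other way from Cyfip1 and Nckap1 between day 0 and day 12. Its level was 36.8 and 43.8 scaled CPM in NI, 58.2 and 44.5 in shSCR, 94.6 and 76.3 in shCPSF3#1, 65.1 and 63.2 in shCPSF3#2, 80.2 and 60.2 in shUL1#1, and 67.8 and 63.2 in shUL1#2. All 8 knockdown libraries were above both shSCR libraries. Baiap2 in the overexpression dataset was 38.7 and 52.2 in NI, 73.4 and 66.7 in Empty, and 92.9 and 78.5 in T7-TIA1.

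The comparison of shSCR with NI asks how the genes differ after 12 days of induction. Cyfip1 fell by 0.91 ± 0.15 on the log2 scale (SE, 2 libraries against 2, limma adjusted p = 0.00209), to 0.531 of its NI level. Nckap1 fell by 0.91 ± 0.18 (limma adjusted p = 0.00413), to 0.533 of its NI level. These were the only calls among the 7 tested members, where 44.5% of all 9435 genes passed the same test. The other members had log2 fold changes of 0.69 for Wasf1 (adjusted p = 0.0805), −0.48 for Abi1 (0.0959), −0.45 for Abi2 (0.0767), 0.34 for Baiap2 (0.189), and −0.11 for Wasf2 (0.386). The libraries of the 2 groups did not overlap for any of the 8 genes, which held for 77.0% of all genes. The median log2 fold change of the 8 members was −0.28, beside 0.00 over all genes.

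The overexpression dataset allowed the same question with its own NI and vector libraries. From NI to Empty, 6 of the 8 members passed the test, where 46.5% of all 9472 genes did. Of these, 3 rose (22.8% of all genes did) and 3 fell (23.6%). Wasf1 rose by 1.01 ± 0.13 on the log2 scale (SE, limma adjusted p = 0.00335), Wasf3 by 0.94 ± 0.22 (0.0183), and Baiap2 by 0.63 ± 0.18 (0.0328). Cyfip1 fell by 0.67 ± 0.10 (limma adjusted p = 0.00473), Nckap1 fell by 0.70 ± 0.14 (0.0125), and Abi1 fell by 0.52 ± 0.12 (0.0183). Abi2 and Wasf2 had log2 fold changes of −0.16 (adjusted p = 0.265) and −0.03 (0.807). Without Empty replicate 1 or without Empty replicate 2, only the calls of Wasf1 and Cyfip1 were kept, and that of Baiap2 was also lost in a fit of only NI and Empty (adjusted p = 0.0630). The median of the 8 members was −0.10, beside 0.01 over all genes.

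**Figure D2:**
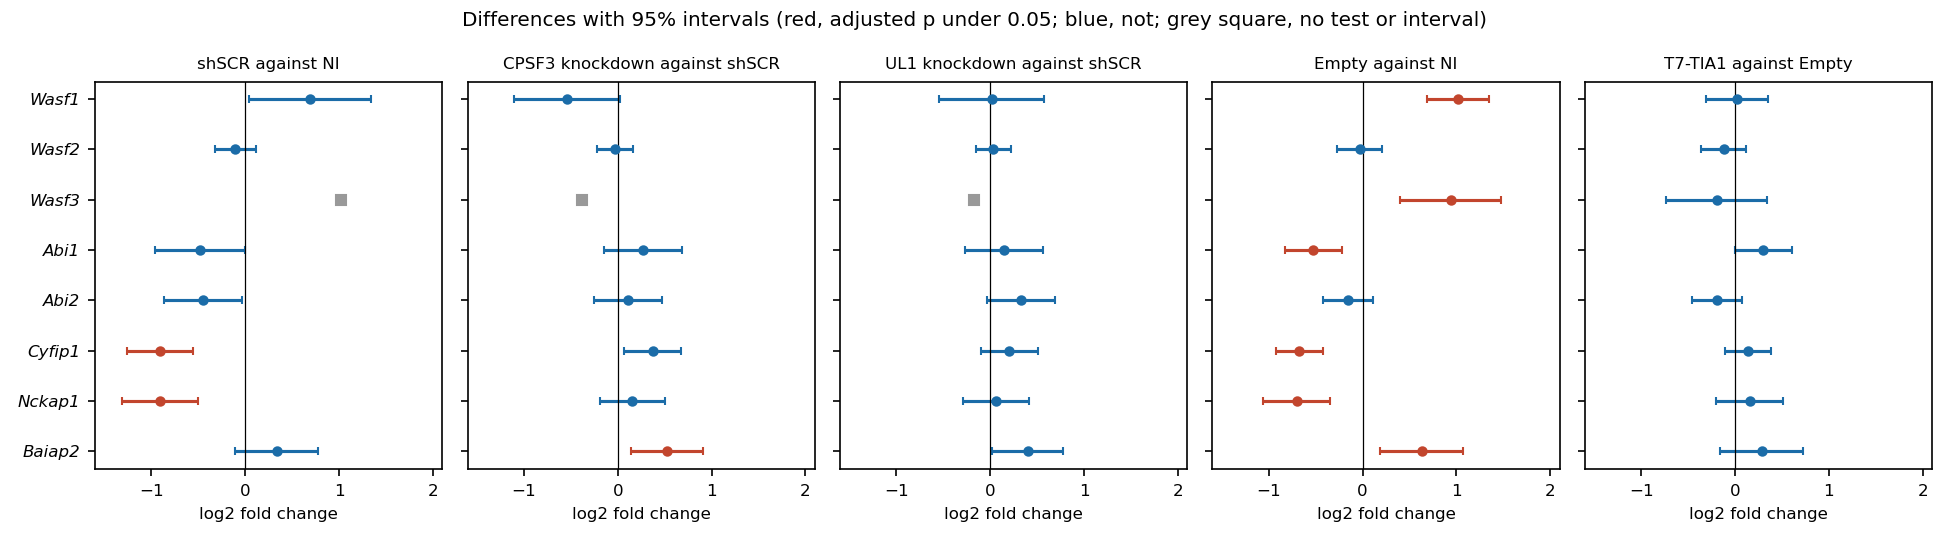
Log2 fold change (x axis) of each member (y axis) in 5 contrasts, with 95% intervals from the limma fit. Red points passed an adjusted p of 0.05, blue did not, and the grey squares of Wasf3 carry no test: Cyfip1 and Nckap1 lie left of 0 in both comparisons with NI, and Baiap2 is red with CPSF3 knockdown.

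Knockdown of CPSF3 was compared with shSCR over the 2 shRNAs together. Baiap2 was the only member called, where 26.1% of all genes were, and rose by 0.53 ± 0.17 on the log2 scale (SE, 4 libraries against 2, limma adjusted p = 0.0497). This call sits at the threshold: it was lost in a fit of only the 3 groups (adjusted p = 0.122), under median-of-ratios scaling (0.0678), and without shSCR replicate 2 or any 1 of the 4 knockdown libraries (0.0532 to 0.336). Cyfip1 had a log2 fold change of 0.37 ± 0.13 (adjusted p = 0.0689) and Wasf1 of −0.54 ± 0.24 (0.130). When the replicate number entered as a block, calls in this contrast were Wasf1 (limma adjusted p = 0.0183), Cyfip1 (0.0197), Abi1 (0.0374, log2 fold change 0.27), and Baiap2 (0.0164), where 49.8% of all genes passed. The libraries of 2 of 8 members, Cyfip1 and Baiap2, did not overlap between the groups, beside 37.9% of all genes. The fibroblast and blood marker sums given above also stood higher with this knockdown than in shSCR, and the epithelial sum stood lower. The part of these markers in the differences was not tested.

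Knockdown of UL1 gave no call among the members, where 10.5% of all genes passed. By an unadjusted p under 0.05, 1 member passed, Baiap2, with a log2 fold change of 0.40 (limma adjusted p = 0.159). Abi2 had a log2 fold change of 0.33 ± 0.16 (adjusted p = 0.217), which passed once the replicate number was a block (0.0340). The 95% intervals on the log2 scale were −0.55 to 0.58 for Wasf1, −0.10 to 0.51 for Cyfip1, and −0.29 to 0.41 for Nckap1. CPSF3 and UL1 knockdown shared the shSCR libraries, so the factors were also set against each other directly. No member passed in that contrast, where 0.0424% of all genes did, and by an unadjusted p under 0.05 the only member was Wasf1, with a log2 fold change of −0.56 ± 0.20 (limma adjusted p = 0.314).

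T7-TIA1 was compared with Empty at day 12. None of the members and none of the 9472 genes passed (0.0% of the table, limma adjusted p of 0.999 for each member), while 393 genes and 0 members had an unadjusted p under 0.05. The largest log2 fold changes of the members were 0.30 for Abi1 (95% interval −0.00 to 0.60) and 0.28 for Baiap2 (−0.16 to 0.72). The libraries of 7 of 8 members did not overlap, beside 51.9% of all genes, with Wasf3 the exception.

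Over the 12 knockdown libraries, Wasf1 was the member whose level ran most like that of Wasf3, with a Pearson r of 0.82 on the log2 scale, at rank 360 of the table. Cdc37l1 (r = 0.96), Hadh and Glo1 (r = 0.95), and Def8 and Ttc5 (r = 0.93) were the 5 genes most like Wasf3. Cyfip1 (r = −0.77), Abi1 (r = −0.82), and Nckap1 (r = −0.84) ran opposite to it, and Baiap2 (0.15), Abi2 (−0.00), and Wasf2 (−0.23) lay in between. These values describe the libraries, which share day, infection, and replicate number, and carry no test.

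Around the complex, 7 lists of actin assembly genes held 76 genes, of which 54 were in the knockdown table and 56 in the overexpression table. From NI to shSCR, 11 of the 54 rose and 25 fell, beside 22.5% and 22.0% of all genes, and from NI to Empty 11 of the 56 rose and 24 fell, beside 22.8% and 23.6%. BRK1, the small subunit of the complex, had the only listed gene of its group in the table: Brk1 fell by 0.52 ± 0.14 on the log2 scale from NI to shSCR (SE, limma adjusted p = 0.0197) and fell by 0.53 ± 0.12 from NI to Empty (0.0160). Rac1, the GTPase that activates the complex, fell by 1.07 ± 0.18 (limma adjusted p = 0.00192) and fell by 0.82 ± 0.11 (0.00397) in the same contrasts.

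The Arp2/3 complex, the target of WAVE proteins, showed the same side. Of its 9 genes in the table, 6 fell from NI to shSCR (22.0% of all genes did) and none rose, with a list median of −1.04 on the log2 scale, and 5 fell (23.6%) and none rose from NI to Empty, with a median of −0.82. Arpc5 fell by 1.77, Actr3 by 1.43, Arpc4 by 1.25, and Arpc1b by 1.14 from NI to shSCR. With CPSF3 knockdown, 4 of the 9 passed as higher than shSCR, beside 16.7% of all genes, and none as lower. Their log2 fold changes were 0.94 for Arpc1b, 0.53 for Arpc5, 0.38 for Arpc2, and 0.35 for Arpc4. Arpc2 was 349 and 340 scaled CPM in shCPSF3#1 but 258 and 237 in shCPSF3#2, overlapping shSCR at 243 and 207. Arpc1b, Arpc5, and Arpc4 stood above both shSCR libraries with either shRNA, with Arpc5 at 191 and 182 in shCPSF3#1 and 152 and 122 in shCPSF3#2. Of these genes, only Arpc1b was followed in the fit of only the 3 groups, where its call was lost (limma adjusted p = 0.0946). With UL1 knockdown none of the 9 passed, and the list median was 0.09. Yet Arpc1b (215 to 329, against 207 and 140 in shSCR) and Arpc4 (83.1 to 96.0, against 69.8 and 73.7) stood above both shSCR libraries in every UL1 knockdown library. Arpc5 and Arpc2 overlapped shSCR there. The higher levels of Arpc1b and Arpc4 are thus not particular to CPSF3 knockdown.

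Among all 76 listed genes, the largest calls from NI to shSCR were Elmo1 (2.85 on the log2 scale), a partner of the Rac activator DOCK180, Diaph3 (−1.95), a formin, Mtss1 (1.87), an I-BAR protein like IRSp53, and Arpc5. From NI to Empty they were Mtss1 (2.88), the formin Fmn1 (−2.03), the Rap1 effector Apbb1ip (−2.001), and Diaph3 (−1.71). With CPSF3 knockdown, 12 of the 54 listed genes passed as higher and 2 as lower, beside 16.7% and 9.35% of all genes, together near the share of the whole table. The largest were Arpc1b, the Arp2/3 inhibitor Arpin (0.82), Diaph3 (−0.79), and the Rac activator Trio (0.78). In a fit of only the 3 groups all 4 of these calls were lost (limma adjusted p 0.0713 to 0.122), and when each of the 6 libraries was left out in turn Arpin was kept in 1 case, Diaph3 in 2, Arpc1b in 3, and Trio in 5. With UL1 knockdown, 2 of the 54 passed, both higher, beside 10.5% of all genes: the formin Daam2 (1.01) and Trio (0.75). The call of Daam2 was lost without any 1 of the 6 libraries (limma adjusted p 0.0681 to 0.220), and that of Trio in 5 of 6 cases and in the fit of only the 3 groups (0.0958). CPSF3 against UL1 knockdown and T7-TIA1 against Empty gave no call in these lists.

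**Figure D3:**
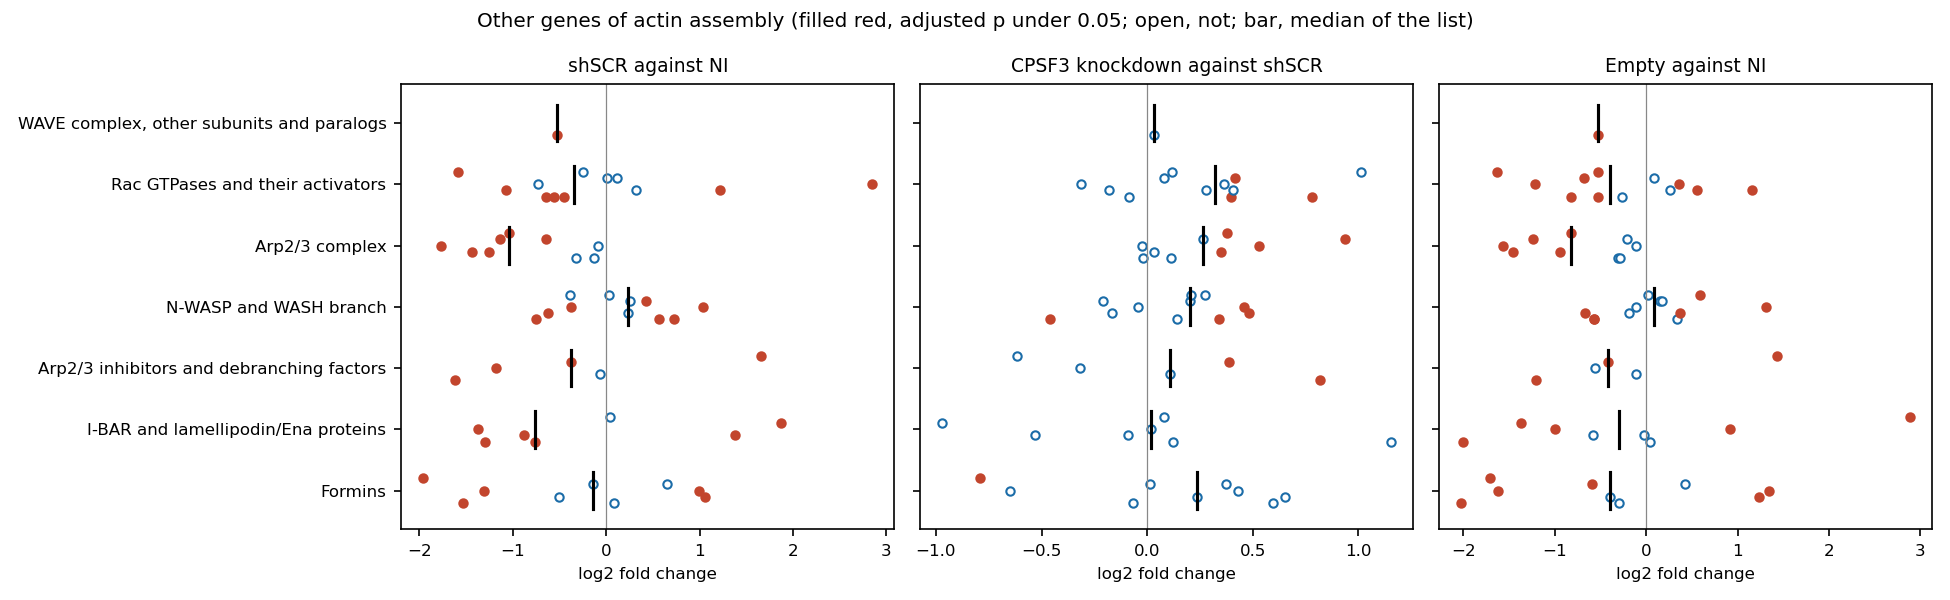
Log2 fold change (x axis, with its own range in each panel) of the listed actin assembly genes, by list (y axis), in 3 contrasts. Filled red points passed an adjusted p of 0.05 and bars are list medians: the Arp2/3 median is −1.04 and −0.82 in the comparisons with NI.

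Splicing was given as percent spliced in (PSI), the share of transcripts that include a segment. Of the 384 covered events of the members, 129 were exons, 113 introns, and 142 alternative splice sites, and 22 had a mean PSI between 5 and 95. An event was called by the PSI rule when mean PSI differed by at least 10 and the closest libraries by at least 5. By this rule the members had 4 events from NI to shSCR (1.18% of all covered events), 2 with CPSF3 knockdown (0.396%), 3 with UL1 knockdown (0.333%), 0 between the knockdowns (0.00508%), 4 from NI to Empty (0.658%), and 0 with T7-TIA1 (0.272%). The 2 Wasf3 exons, whose values chose the gene, made up 2 of the 4 events from NI to shSCR, both of those with CPSF3 knockdown, and 2 of the 3 with UL1 knockdown. They were also 2 of the 4 from NI to Empty, so nothing is read from these counts in either dataset. The events lay on 5 segments: a pair of Wasf3 exons, a 15-nt exon of Abi1, and an exon and an intron of Baiap2.

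The 15-nt microexon of Abi1 (MmuEX0003242, chr2:22963214-22963228, minus strand) is coding and keeps the reading frame. It is printed because it has the largest PSI difference outside Wasf3. The sequence, on the transcript strand with 20 nt of the flanking exons, comes from GENCODE vM21 transcripts of GRCm38. Capitals mark the microexon.
Abi1 15-nt exon: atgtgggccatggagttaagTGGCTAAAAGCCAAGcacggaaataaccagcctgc

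Its PSI was 10.2 and 10.7 in NI, 37.4 and 36.2 in shSCR, 39.8 and 51.8 in shCPSF3#1, 54.5 and 38.8 in shCPSF3#2, 39.4 and 37.1 in shUL1#1, and 50 and 49.2 in shUL1#2. The overexpression libraries gave 12.8 and 18.4 in NI, 37.8 and 38.6 in Empty, and 35.5 and 45.0 in T7-TIA1. Every day 12 library was above every NI library of its dataset, with a gap of 25.6 PSI points between shSCR and NI and 19.4 between Empty and NI.

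From NI to shSCR the microexon rose by 26.4 PSI points (limma read test, adjusted p = 0.0141). The call was lost without any 1 of the 4 libraries (adjusted p 0.0504 to 0.0772) and in a fit on PSI itself (0.142). From NI to Empty the difference was 22.6 points (adjusted p = 0.139), which passed only with a minimum of 10 reads of each kind per library on average, chosen after the data were seen (0.0105). Against shSCR it differed by 9.42 points with CPSF3 knockdown (adjusted p = 0.306) and 7.12 with UL1 knockdown (0.516), and against Empty by 2.12 with T7-TIA1 (1.00). The junction reads were few on the inclusion side in NI, at 18 and 18 against 695 skipping reads in replicate 1, and 38 and 71 against 400 in shSCR replicate 1. The table scales inclusion reads up for such a short exon, so its counting error is understated in the test.

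The 44-nt exon of Baiap2 (MmuEX0007650, chr11:120003038-120003081) was at a PSI of 27.7 and 21.6 in NI, 33.4 and 28.8 in shSCR, 36.4 to 41.4 in the CPSF3 knockdown libraries, and 39.0 to 46.7 in the UL1 knockdown libraries. The overexpression libraries gave 18.1 and 21.5 in NI, 49.6 and 33.01 in Empty, and 54.4 and 41.4 in T7-TIA1. It met the PSI rule with UL1 knockdown, by 10.4 points, and from NI to Empty, by 21.5 points. The read test did not call it in either contrast (limma adjusted p = 0.153 and 0.254).

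The exon lies inside an intron event of Baiap2 (MmuINT0023756, chr11:120000587-120006358), so the 2 are not separate evidence. Annotated coding exon sequence overlaps this intron, so reads scored as retention may come from exons, which was not tested. Retention of this intron was 18.2 and 17.2 PSI in NI, 33.5 and 34.6 in shSCR, and 22.0 to 34.6 in the 8 knockdown libraries. It rose by 16.3 points from NI to shSCR (limma read test, adjusted p = 0.0365), a call lost without any 1 of the 4 libraries (0.112 to 0.169) and on PSI itself (0.139). From NI to Empty it differed by 13.5 points, with libraries at 19.97 and 23.0 against 43.3 and 26.6 (adjusted p = 0.342).

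Of the pair of Wasf3 exons whose values set the choice, the upstream one is the 176-nt exon MmuEX0051719 (chr5:146460965-146461140, plus strand), which shifts the reading frame when skipped alone. It is printed, from the same GENCODE transcripts, with 20 nt of each flanking exon in lower case.
Wasf3 176-nt exon: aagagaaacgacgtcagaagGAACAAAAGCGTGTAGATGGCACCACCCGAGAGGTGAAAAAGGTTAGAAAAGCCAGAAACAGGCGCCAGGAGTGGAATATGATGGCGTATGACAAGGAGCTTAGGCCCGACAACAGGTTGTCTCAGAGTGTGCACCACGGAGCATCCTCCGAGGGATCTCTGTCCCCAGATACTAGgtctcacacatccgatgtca

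Its PSI ran from 2.56 to 5.66 in NI, 65.8 to 76.4 in shSCR, 7.05 to 49.5 with CPSF3 knockdown, and 11.1 to 43.7 with UL1 knockdown, given as a description. A 170-nt exon downstream (MmuEX0051720, chr5:146465850-146466019) ran the other way, and the PSI values of the pair summed to between 93.1 and 104 in every library. In the overexpression dataset the 176-nt exon was at 7.46 and 1.90 in NI, 53.0 and 59.4 in Empty, and 51.8 and 53.7 in T7-TIA1. The difference from NI to Empty was 51.5 points (limma read test, adjusted p = 0.126, and 0.00249 with the later minimum of reads), and that of T7-TIA1 from Empty was −3.48 (0.953). The exon pair set the choice of the gene, and the minimum was chosen after the data were seen. These p-values are therefore no separate support. The shSCR library with the higher Wasf3 level, 49.3 scaled CPM, also had the higher PSI of the 176-nt exon, 76.4.

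**Figure D4:**
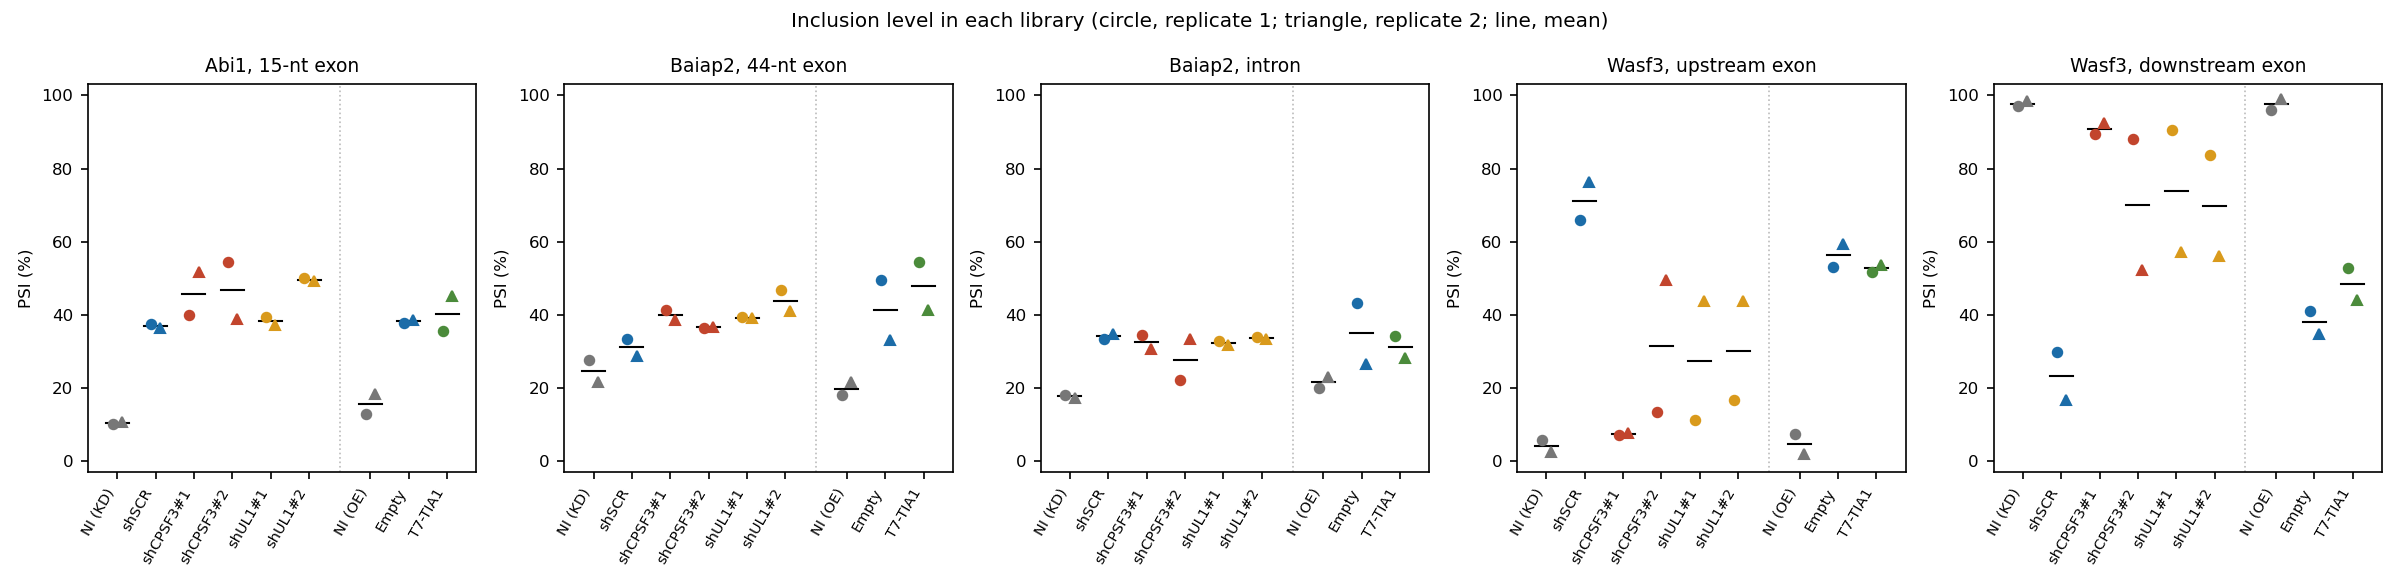
PSI in percent (y axis) of the 5 member segments that met the PSI rule (the upstream Wasf3 exon is the one of 176 nt, the downstream one that of 170 nt), in each library of the 9 groups (x axis), with the mean as a line. The Abi1 exon stays at or below 18.4 in NI and at or above 35.5 at day 12.

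Abi1 and Abi2 each carry an alternative 87-nt exon in the same phase of the reading frame, with 64 of 87 bases identical (73.6%). They are printed on the transcript strand with capitals where the paralogs are identical. No other pair of segments was compared.
Abi1 87-nt exon: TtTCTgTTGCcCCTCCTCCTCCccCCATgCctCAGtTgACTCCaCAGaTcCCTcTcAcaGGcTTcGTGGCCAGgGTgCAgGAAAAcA
Abi2 87-nt exon: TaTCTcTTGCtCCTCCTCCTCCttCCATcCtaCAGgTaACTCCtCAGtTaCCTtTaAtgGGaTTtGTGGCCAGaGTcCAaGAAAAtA

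The paralogous exons were used at unlike levels. The Abi1 exon (MmuEX0003244, chr2:22950184-22950270) was at a PSI between 76.6 and 93.1 in the 18 libraries and the Abi2 exon (MmuEX0003254, chr1:60464529-60464615) between 15.4 and 29.7. Neither was called in any contrast by the PSI rule or the read test. From NI to shSCR the Abi1 exon differed by −4.51 points (limma adjusted p = 0.216) and the Abi2 exon by −7.46 (0.190).

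Events of Wasf3 carry no test in the knockdown dataset and are left out of the read test counts there. On simulated reads of that dataset, 86 of 223 calls of the test were of unchanged events. The read test, on all covered events, called 15 events of the members from NI to shSCR (4.53% of all covered events), with 11 higher (2.73%) and 4 lower (1.8%). Besides those of Abi1 and Baiap2, none differed by more than 1.61 PSI points. They lay in Cyfip1 (6), Nckap1 (6), and Wasf2 (1), and 2 of the Nckap1 events are the mirror values of a single splice site choice. In a 79-nt intron of Nckap1 (MmuINT0106452, chr2:80553228-80553306), retention was 1.33 and 1.27 PSI in NI and 2.66 and 2.42 in shSCR (adjusted p = 0.0421). With CPSF3 knockdown (0.612%) and with UL1 knockdown (0.146%) the test called 1 member event each, a 133-nt exon of Nckap1 (MmuEX6102588, chr2:80528535-80528667), named after its values were seen. It was at 99.8 and 99.9 PSI in shSCR and 100 in the other 10 knockdown dataset libraries. No member event was called between the knockdowns, from NI to Empty (0.000525%), or with T7-TIA1.

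With the later minimum of reads, which left 37 member events in the knockdown dataset and 40 in the overexpression dataset, the calls were 4 from NI to shSCR (18.5% of the events tested), 1 with CPSF3 knockdown (9.78%), 1 with UL1 knockdown (5.3%), 0 between the knockdowns (0.0127%), 4 from NI to Empty (2.48%), and 0 with T7-TIA1 (0.0806%). Of the 37 events, 2 were of Wasf3 and could not be counted, and of the 4 calls from NI to Empty, 2 were the Wasf3 exons. The event called with either knockdown was a 174-nt exon of Abi1 (MmuEX0003243, chr2:22953435-22953608), also named after its values were seen. Its PSI was 97.8 and 98.9 in shSCR, 92.3 to 95.3 with CPSF3 knockdown (limma adjusted p = 0.00753, and 0.105 over all covered events), and 94.5 to 97.1 with UL1 knockdown (0.0489, and 0.238). Of the 15 events called from NI to shSCR over all covered events, 3 were called here too: the Abi1 microexon, the Baiap2 intron, and the 79-nt Nckap1 intron.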

How the data were processed

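RNA was sequenced from 18 MEF libraries, 2 in each of 9 groups, and nothing states that the replicates were separate cultures, so p-values measure only the spread between these libraries. Per the labels and the paper, the authors mapped stranded paired-end reads to mm10 with STAR 2.7.1a and obtained CPM with edgeR 3.16.5. In the tables deposited by the authors, expression is a signal of at least 0: CPM on a library size scaled per library. The authors state a minimum coefficient of variation for the listed genes, which many genes of the deposited tables do not reach. The authors quantified events with vast-tools and deposited PSI in percent, with a score and the inclusion and exclusion reads. Titles and labels differ on the day of shUL1#2 and of NI in the overexpression dataset, and the titles were used.

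Expression was tested with limma 3.58.1 (R 4.3.3, trend) on log2(scaled CPM + 1), two-sided, with each dataset's groups fitted together, with Benjamini-Hochberg adjustment over all genes, at an adjusted p under 0.05. Fold changes of low genes are understated by the added 1. The tests had been laid out for these values, and the 2 tables were fitted separately. Covered events (at least VLOW by their coverage score throughout a dataset) were tested with robust limma on log2 of inclusion over exclusion reads, 1 added to each, weighted by counting variance plus 0.05. On simulated reads of the knockdown dataset, 86 of 223 calls of this test were of unchanged events, a share above its threshold. With a mean of 10 reads of each kind it was 15 of 199, lower but still above the threshold. In the overexpression dataset it was 3 of 89 and 7 of 199, under the threshold both ways. Minimums on reads were then looked at with the members' calls in view, so calls that depend on them are given with both values. Per kilobase levels used merged GENCODE vM21 exons. Python 3.11.15, NumPy 2.4.6, pandas 2.3.3, and SciPy 1.17.1 were used.

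All 8 genes were named. Of the listed pathway genes, the 4 largest calls of each contrast were named, and of events up to 12 that met either criterion, by their largest PSI difference. The members, lists, and tests were chosen with earlier results of these data known. Among day 12 groups of the knockdown dataset, libraries with the same number deviated together (r of 0.674 to 0.949 across genes, 0.132 to 0.298 across events). The main fits did not use this pairing, so their p-values are unpaired. It entered only in the alternative fits with the replicate number as a block. Depth was read from the step between values, 100% of which were whole multiples of it within 0.01 reads. No count test was run.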

Additional observations from a re-analysis of the deposited data

How the results depend on the processing

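The calls of Cyfip1 and Nckap1 from NI to shSCR held under every alternative tried: other added constants, a filter on low levels, the replicate block, only the groups compared, median-of-ratios scaling, and leaving out each library. With the replicate number as a replicate block, members called numbered 5 from NI to shSCR (59.4% of all genes), where the numbers do not pair libraries (r of −0.0422 across genes), 4 with CPSF3 knockdown (49.8%), and 1 with UL1 knockdown (29.3%). CPSF3 knockdown gave 0 with only the groups of the contrast (3.65%) and 0 with median-of-ratios scaling (25.6%). Leaving out 1 library gave 2 to 3 calls from NI to shSCR (27.7% to 35.9% of all genes), 0 to 2 with CPSF3 knockdown (6.26% to 34.2%), and 2 to 6 from NI to Empty (15.6% to 63.1%). Over all genes, fitting only the groups compared gave 344 calls with CPSF3 knockdown (2458 otherwise), 145 with UL1 knockdown (987), and 2 with T7-TIA1 (0), and the block gave 4698, 2768, and, between the knockdowns, 70 (4).

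Wasf3 events are again left out of the limma counts in the knockdown dataset. Member events called by the read test changed with the minimum of reads, chosen after seeing the data, and on leaving out 1 library. At 1, 10, and 50 reads of each kind in all libraries together, and at a mean of 10, they were 7, 7, 5, and 4 from NI to shSCR (3.05%, 6.06%, 11.9%, and 18.5% of all events tested), 3, 5, 3, and 1 with CPSF3 knockdown (1.12%, 3.26%, 6.08%, and 9.78%), 0, 3, 2, and 1 with UL1 knockdown (0.401%, 1.68%, 3.2%, and 5.3%), and 2, 4, 4, and 4 from NI to Empty (0.0913%, 1.22%, 2.26%, and 2.48%). Unweighted limma on PSI gave 4 from NI to shSCR (0.881%), 0 with UL1 knockdown (0.498%), 3 from NI to Empty (0.49%), and 3 with T7-TIA1 (0.595%), and the block gave 2 with CPSF3 knockdown (0.878%) and 0 with UL1 knockdown (0.144%). Leaving out 1 library gave 0 to 9 from NI to shSCR (0.492% to 1.55%), 0 to 4 with CPSF3 knockdown (0.0283% to 0.528%), and 0 to 3 with UL1 knockdown (0.0% to 0.314%). Counts by the PSI rule without a minimum range rose to 1 with T7-TIA1 (0.436%), and without 1 library ran from 4 to 7 from NI to shSCR (1.47% to 1.61%, 7 without shSCR replicate 2), 4 to 6 from NI to Empty (0.862% to 1.35%), and 0 to 2 with T7-TIA1 (0.563% to 0.758%).

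Signs turned only for values that had passed no test, on leaving out 1 library. For CPSF3 knockdown the log2 ranges were −0.0678 to 0.0140 for Wasf2, −0.95 to 0.19 for Wasf3, and −0.00857 to 0.24 for Abi2. For UL1 knockdown they were −0.36 to 0.39 for Wasf1, −0.00655 to 0.0753 for Wasf2, −0.75 to 0.40 for Wasf3, and −0.0453 to 0.17 for Nckap1. Wasf3 ran from −0.42 to 0.0124 between the knockdowns and Wasf2 from −0.0769 to 0.0147 from NI to Empty. On the log2 scale of reads, the Abi1 microexon ran from −0.10 to 0.36 and the Baiap2 intron from −0.40 to 0.00324 between the knockdowns. With T7-TIA1 the Abi1 microexon ran from −0.16 to 0.41, the Baiap2 exon from −0.0820 to 0.91, and the Baiap2 intron from −0.75 to 0.32. The cause of these changes was not tested. A planned edgeR test on recovered reads was not run. With 2 libraries a group and no replicate block, differences the size of the spread within shSCR in Wasf1 and Wasf3 cannot be resolved. With the block, Wasf1 passed with CPSF3 knockdown, as given above.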
